A study of Mus musculus with 6 samples.

Results

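The genes C1qa, C1qb and C1qc encode the chains of complement C1q, and their messenger RNA was followed in splenic dendritic cells of CpG-pretreated and untreated mice. The 3 genes were taken by their mouse Entrez identifiers (12259, 12260 and 12262) from a count table of 27179 genes, and each was found as 1 row. They were chosen because their levels were already known to be lower after CpG in these libraries, so the size and direction of that difference are given as a description, and nothing is read from whether a chain was called in the fit over all genes.

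RNA-seq was carried out on 6 libraries of CD8-negative dendritic cells sorted from the spleens of C57BL/6 mice. The comparison is of 3 libraries from animals given CpG, DNA rich in unmethylated CG dinucleotides that is sensed by Toll-like receptor 9, with 3 from untreated animals (labelled None), and the study concerns the state of dendritic cells after systemic inflammation. Both groups share the strain and the sort, and no genetic alteration is given for either. Libraries in both groups carry the numbers 2, 3 and 4, and the p-values below measure only the spread between these samples. The sources used here do not give the sequence, dose or route of the CpG, when it was given, the age and sex of the mice, or whether a sample was 1 mouse or a pool.

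C1q is the recognition unit of the classical complement pathway. It is built of A, B and C chains in equal numbers, each with a collagen-like stalk and a globular head, and it binds antibody in immune complexes and the surface of dying cells. The proteases C1r and C1s travel with it and start the cascade, while C1q alone also acts as an opsonin for the removal of apoptotic cells. Unlike most complement proteins, which come from the liver, C1q is made mainly by macrophages and by some dendritic cells. In spleen, the red pulp macrophages that recycle red cells are a well-known source.

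The stalk is what makes the chains a family, and it is legible in the coding sequence as a glycine codon repeated at intervals of 3 codons. The stretches below run from the glycine codon that opens the repeat to the end of its last triplet and come from the GENCODE M21 transcripts of GRCm38. Capitals mark the glycine codon (GGN) that opens each triplet, with positions counted as codons from the start codon.
C1qa, codons 31 to 109: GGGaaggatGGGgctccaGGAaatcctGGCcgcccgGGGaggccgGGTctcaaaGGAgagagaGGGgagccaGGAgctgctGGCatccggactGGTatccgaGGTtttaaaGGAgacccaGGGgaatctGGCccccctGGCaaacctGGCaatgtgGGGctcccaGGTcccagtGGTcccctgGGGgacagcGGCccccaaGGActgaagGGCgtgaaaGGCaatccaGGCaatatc
C1qb, codons 31 to 117: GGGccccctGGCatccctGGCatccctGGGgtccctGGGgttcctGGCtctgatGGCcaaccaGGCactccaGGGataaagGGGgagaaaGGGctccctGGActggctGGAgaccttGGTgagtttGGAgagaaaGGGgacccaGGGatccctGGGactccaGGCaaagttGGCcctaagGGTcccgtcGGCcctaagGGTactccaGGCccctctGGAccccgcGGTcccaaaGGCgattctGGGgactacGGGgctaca
C1qc, codons 32 to 115: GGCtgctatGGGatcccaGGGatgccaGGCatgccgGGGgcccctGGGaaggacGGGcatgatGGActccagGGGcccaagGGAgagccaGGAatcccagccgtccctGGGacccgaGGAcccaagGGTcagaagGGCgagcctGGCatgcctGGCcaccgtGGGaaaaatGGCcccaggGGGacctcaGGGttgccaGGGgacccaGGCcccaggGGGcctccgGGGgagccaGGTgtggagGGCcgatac
C1qa held 26 glycine triplets in runs of 10 and 16, C1qb held 29 in a single run, and C1qc held 27 in runs of 11 and 16. The repeat was broken at 1 place in C1qa and 1 place in C1qc, where the next glycine codon followed after 4 and 6 codons instead of 3. Over their whole coding sequences the chains were 63.3% (C1qa and C1qb), 65.1% (C1qa and C1qc) and 64.1% (C1qb and C1qc) identical in aligned bases. No run of 50 bases of any of the 3 transcripts was found in a transcript of another gene, among 141767 transcripts of 55450 genes. Reads of that length or longer could therefore be told apart between the chains where they matched exactly; the sources used here do not give the read length.

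The genes lie side by side on the minus strand of chromosome 4 (GRCm38.p6, the assembly that mm10 names), in the order C1qa, C1qc, C1qb along the direction of transcription. C1qa spans chr4:136895916-136898844, C1qc spans chr4:136889801-136892936 and C1qb spans chr4:136880126-136886200. The cluster covers 18.7 kb, with gaps of 3.6 kb between C1qb and C1qc and 2.98 kb between C1qc and C1qa, and no other RefSeq gene overlapped it.

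The sequences just upstream of C1qb and C1qc are shown as a description. The 3 genes were chosen for being lower after CpG, so nothing about shared control is read from them. They are RefSeq sequences of GRCm38.p6 on the minus strand, 250 bases before the annotated start of C1qb (chr4:136886201-136886450) and the 99 bases that lie upstream of both annotated starts of C1qc (chr4:136893066-136893164). RefSeq promoter entries matched 2 of the 3 genes. Capitals mark matches to motifs searched on both strands, GAGGAA (the core of a PU.1 site) and TGCTGA (the core of a Maf recognition element).
C1qb: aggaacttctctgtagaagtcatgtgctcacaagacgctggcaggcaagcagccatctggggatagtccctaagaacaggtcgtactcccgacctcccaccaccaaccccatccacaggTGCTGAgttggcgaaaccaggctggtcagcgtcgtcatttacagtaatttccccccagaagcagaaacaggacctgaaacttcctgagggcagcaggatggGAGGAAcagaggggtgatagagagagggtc
C1qc: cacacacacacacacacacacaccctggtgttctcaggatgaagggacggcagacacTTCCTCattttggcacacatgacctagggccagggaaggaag
In the 250 bases before the RefSeq start, GAGGAA matched 30 bases upstream in C1qb and 193 bases upstream in C1qc, the latter on the opposite strand. The distance in C1qc depends on the annotation. Its start is chr4:136892914 in the RefSeq promoter entry and chr4:136893065 in GENCODE, and the match lies nearer to the GENCODE start. TGCTGA matched in C1qb only, 131 bases upstream. The interferon response motif (GAAA, any 2 bases, GAAA), whose GAAA can overlap the end of a PU.1 core, matched in neither. Among 32851 mouse promoters of the same length, 23.3% held GAGGAA, 16.1% held TGCTGA and 2.98% held the interferon response motif. A match describes these letters only.

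All 3 chains were at a modest level in untreated cells and were lower in every CpG library. Levels are in CPM, a gene's reads scaled to the TMM-normalized size of its library, and the 3 genes had between 28 and 201 reads per library. Together the chains summed to 40.7, 49.6 and 58.9 CPM in libraries 2, 3 and 4 of the untreated group, and to 15.6, 21.7 and 19.0 CPM in libraries 2, 3 and 4 of the CpG group. The means were 49.7 ± 9.10 and 18.8 ± 3.06 CPM (SD, n = 3 each), a 2.65-fold difference. The lowest untreated library therefore stood well above the highest CpG library. In bulk RNA of this kind, fewer cells of a type that makes C1q and less C1q RNA per cell cannot be told apart.

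C1qa, the A chain, was at 18.6, 20.4 and 24.7 CPM in the untreated libraries, from 151, 163 and 201 reads. In the CpG libraries it was at 7.24, 8.37 and 8.06 CPM, from 59, 66 and 64 reads. The groups did not overlap, and the CpG libraries lay within about 1 CPM of each other while the untreated ones spread more widely. The mean was 21.2 ± 3.16 CPM against 7.89 ± 0.586 CPM (SD, n = 3), which the edgeR fit gave as a log2 fold change of -1.43 (SE 0.16), or 2.69-fold lower after CpG.

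C1qc, the C chain, was at 14.7, 22.6 and 22.0 CPM in the untreated libraries, from 120, 181 and 179 reads. After CpG it was at 4.42, 8.50 and 7.43 CPM, from 36, 67 and 59 reads. Library 2 was the lowest of its group on both sides, and the groups did not overlap. The mean was 19.8 ± 4.38 CPM against 6.78 ± 2.12 CPM (SD, n = 3), a log2 fold change of -1.55 (SE 0.26), or 2.92-fold lower.

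C1qb, the B chain, was the least abundant, at 7.37, 6.63 and 12.2 CPM in the untreated libraries from 60, 53 and 99 reads. After CpG it was at 3.92, 4.82 and 3.53 CPM, from 32, 38 and 28 reads. The groups did not overlap, but the gap was narrow and 1 library, untreated 4, stood high. The 95% Poisson intervals of untreated 3 (4.96 to 8.66 CPM) and CpG 3 (3.41 to 6.60 CPM) overlapped; such intervals cover counting error only. The mean was 8.72 ± 3.01 CPM against 4.09 ± 0.662 CPM (SD, n = 3), a log2 fold change of -1.09 (SE 0.28), or 2.13-fold lower. Without untreated 4 the log2 fold change of C1qb was -0.78.

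**Figure D1:**
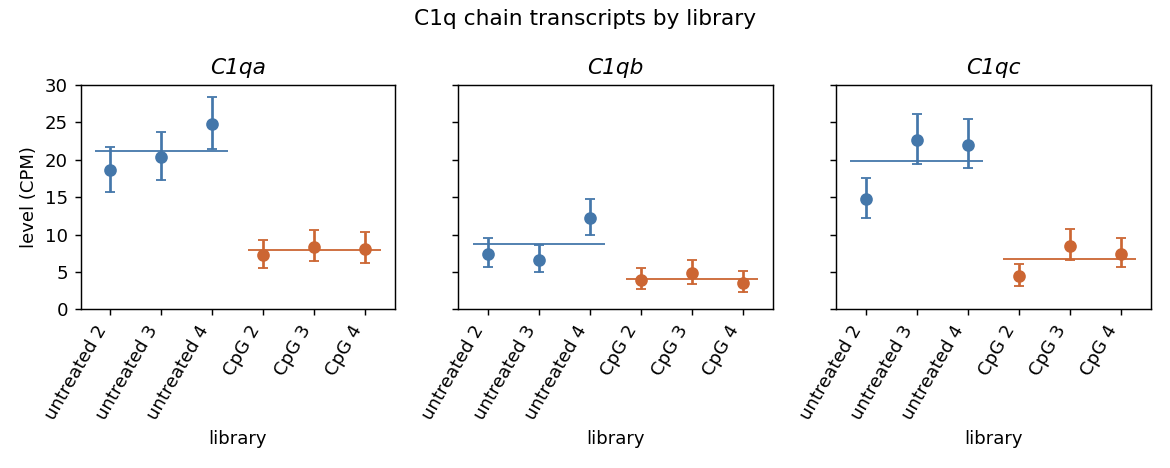
Level of C1qa, C1qb and C1qc (CPM, linear axis from 0) in each library, untreated in blue and CpG in orange; bars are 95% Poisson intervals and horizontal lines are group means. Every CpG point lies below every untreated point of the same chain, and the gap is narrowest for C1qb, where untreated 3 (6.63 CPM) and CpG 3 (4.82 CPM) have overlapping intervals.

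Paired by library number, the log2 ratios of CpG over untreated were -1.33, -1.26 and -1.59 for C1qa in pairs 2, 3 and 4. For C1qc they were -1.69, -1.39 and -1.54, and for C1qb -0.87, -0.44 and -1.72. C1qb differed most between the pairs. With the number as a block in the fit, the log2 fold changes were -1.42 (SE 0.14) for C1qa and -1.55 (SE 0.15) for C1qc. That of C1qb was -1.06 (SE 0.25). The SE fell most for C1qc, but the block was taken from these same data, so no gain in precision is read from this.

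Of the 3 chains, 2 (C1qa and C1qc) passed an adjusted p of 0.05 in edgeR's quasi-likelihood test, against 0.974% of the 11602 genes tested in either direction, 0.5% in the lower and 0.474% in the higher direction. With the replicate block 3 passed (8.52% of all genes, 3.78% lower and 4.73% higher), with DESeq2 3 (3.67% of all genes, 1.47% lower and 2.21% higher), and with limma-voom 1 (C1qa; 0.353% of all genes). Without untreated 3, untreated 4, CpG 2 or CpG 3, none of the 3 passed, and between 0 and 2 of all genes did, with 1065 to 1176 of all genes at an unadjusted p under 0.05. The groups did not overlap in 3 of the 3 chains, as in 18.7% of the genes tested, and every CpG library lay below every untreated library in 9.47% of them. As the chains were chosen on this comparison, nothing is read from these counts.

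Levels of different genes were compared per kilobase of the gene length given in the count table (1082 bases for C1qa, 1062 for C1qb and 1054 for C1qc). On the scale of CPM per kilobase (RPKM), C1qa was at 19.6 ± 2.92 in untreated and 7.29 ± 0.541 in CpG libraries (SD, n = 3). C1qc was at 18.8 ± 4.16 and 6.43 ± 2.01, and C1qb at 8.21 ± 2.83 and 3.85 ± 0.623. In order of level, C1qa and C1qc were neighbours that did not differ beyond their spread, and C1qb lay below both in mean; its libraries did not overlap with those of C1qc in the untreated group (6.24 to 11.5 against 13.99 to 21.5) but did in the CpG group (3.32 to 4.54 against 4.19 to 8.06). Among all genes tested, the RPKM of C1qa fell at percentile 63.8 in untreated and 35.5 in CpG libraries, that of C1qc at 62.5 and 32.8, and that of C1qb at 38.8 and 23.1.

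The make-up of C1q reads differed by under 5 percentage points in mean between the groups. Reads per kilobase of each chain were taken as a share of the 3, so that library size cancels. C1qa held 45.0%, 40.5% and 41.4% without CpG (libraries 2, 3 and 4) and 45.9%, 38.0% and 41.8% with it, with means of 42.3 ± 2.41% and 41.9 ± 3.93% (SD, n = 3). C1qc held 36.7%, 46.1% and 37.8% without CpG and 28.7%, 39.6% and 39.6% with it, with means of 40.2 ± 5.13% and 36.0 ± 6.27%. C1qb held 18.2%, 13.4% and 20.8% without CpG and 25.4%, 22.3% and 18.6% with it, with means of 17.5 ± 3.74% and 22.1 ± 3.37%. The shares of every chain overlapped between the groups. The differences of the mean share, CpG minus untreated, were -0.383 percentage points for C1qa, -4.25 for C1qc and 4.63 for C1qb. The first 2 were under the SD of either group, and that of C1qb was somewhat above both. These differences hung on single libraries: with each left out in turn they ran from -2.37 to 1.55 points for C1qa, from -6.08 (without CpG 3) to -0.632 (without CpG 2) for C1qc, and from 2.6 (without untreated 3) to 6.37 (without CpG 4) for C1qb.

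C1qb was the smallest share in 6 of 6 libraries, and C1qa exceeded C1qc in 4 of 6. The ratio of C1qa to C1qc per kilobase was 1.23, 0.877 and 1.09 in untreated and 1.60, 0.960 and 1.06 in CpG libraries, so that neither chain led throughout. The ratio of C1qa to C1qb was 2.47, 3.02 and 1.99 in untreated and 1.81, 1.70 and 2.24 in CpG libraries. The ratio of C1qc to C1qb was 2.02, 3.44 and 1.82 in untreated and 1.13, 1.78 and 2.12 in CpG libraries. Both ratios to C1qb were highest in untreated 3, the library with the smallest share of C1qb.

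Depth limited these shares. The 3 chains had 331, 397 and 479 reads in the untreated libraries and 127, 171 and 151 in the CpG libraries. C1qb made up 13.4% of those reads in untreated 3 (95% exact binomial interval 10.2% to 17.1%) and 25.2% in CpG 2 (17.9% to 33.7%), the extreme libraries. In untreated 4 and CpG 4 the share of C1qb reads was 20.7% (17.1% to 24.6%) and 18.5% (12.7% to 25.7%). The intervals of the 2 libraries numbered 4 overlapped. Those of the extreme pair did not, but that pair was picked as the lowest and highest of 6.

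**Figure D2:**
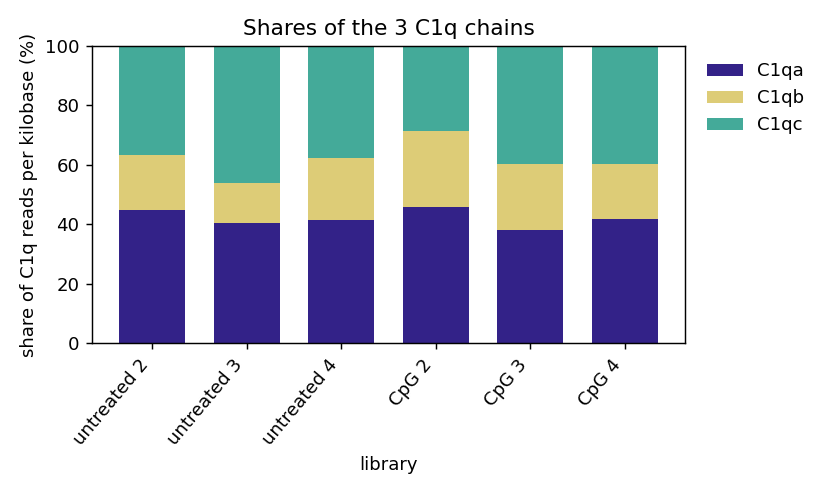
Share of each chain in the C1q reads per kilobase (%) in the 6 libraries, stacked to 100. C1qa takes 38.0% to 45.9% of every bar and C1qb, in the middle, is the thinnest band throughout, from 13.4% in untreated 3 to 25.4% in CpG 2.

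Within the groups, the correlation of C1qa with each of the other chains was higher in these few libraries than that of C1qb with C1qc. After each group mean was removed, the log2 levels of C1qa and C1qb had a Pearson correlation of 0.79 over the 6 libraries, C1qa and C1qc 0.74, and C1qb and C1qc 0.28. The points share library depth and scaling, the values were not set against those of other gene pairs, and they are given as a description. C1qb had 28 to 99 reads per library, so counting error also enters its correlations. So few points do not establish an order among the pairs. Both libraries numbered 2 stood apart in a trend of level with gene length (Spearman correlation -0.67 in untreated 2 and -0.55 in CpG 2, against 0.23 to 0.53 in the other 4). The negative sign means that longer genes tended to lie lower there and shorter genes higher, and the chains are 1054 to 1082 bases long. All 3 chains lay below their group mean in these 2 libraries. For C1qa, C1qb and C1qc the deviations (log2) were -0.18, -0.19 and -0.39 in untreated 2. In CpG 2 they were -0.12, -0.05 and -0.54. The part of the length trend in these levels was not tested. Without both libraries the log2 fold changes of C1qa, C1qb and C1qc were -1.45, -1.17 and -1.48.

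The libraries were of even depth, with total counts of 7855500 to 8228140, so that 1 count was 0.122 to 0.127 CPM. The sorted cells carried the RNA of conventional dendritic cells: 12 of 12 core markers were tested, with summed levels of 49410 to 59430 CPM without and 45620 to 53400 CPM with CpG, and edgeR, DESeq2 and limma-voom called 0, with 0 at an unadjusted p under 0.05. Cd8a was at 1.23 to 4.69 CPM, while the cDC1 marker list it belongs to summed to 1670 to 2870 CPM without and 2010 to 2694 CPM with CpG. Of 10 cDC1 markers 0 were called by edgeR (5 at an unadjusted p under 0.05) or limma-voom and 2 by DESeq2, and with the replicate block 4 were higher (Itgae, Xcr1, Tlr3 and Ly75). Of 12 cDC2 markers 1 (Esam) was lower in edgeR and 5 with the block (Esam, Cd4, Dtx1, Cd209a and Mgl2), 3 were called by DESeq2, and limma-voom or edgeR with a library other than CpG 4 left out called 0, with 4 to 7 at an unadjusted p under 0.05. Of 5 B cell markers tested edgeR called 0 (2 at an unadjusted p under 0.05) and the block 1 (Cr2), with a median log2 fold change of -0.79. Erythroid markers were unequal between the groups, with a sum of 60.7 to 139.1 CPM in untreated and 292.1 to 1287 CPM in CpG libraries, and of 8 tested 5 were higher after CpG in edgeR, 3 with the replicate block and 8 with DESeq2. Limma-voom called 0, as did edgeR with no filter, without both libraries numbered 2 and with any 1 library other than CpG 4 left out, with 0 to 11 at an unadjusted p under 0.05. The part of these other cell types in the C1q levels was not tested.

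C1q works with the proteases C1r and C1s, whose RNA was at or near 0 in these cells. C1ra was at 0.25, 0.25 and 0.49 CPM without CpG and at 0, 0.13 and 0 CPM with CpG, C1rb and C1s1 had no count in any library, and C1s2 had 1 read in untreated 2 and none elsewhere. A count of 0 in a library allows for up to 3 counts, so a lower level cannot be told from 0 at this depth; this covers counting error only. Serping1, the C1 inhibitor that dissociates the proteases from C1q, was at 0.25 CPM or less in each library.

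Of 27 other genes for complement initiators and components, 7 were abundant enough to test, 0 were higher and 1 was lower after CpG, with a median log2 fold change of -0.15 against -0.005 over all genes tested. The lower gene was Fcna, which encodes ficolin A, a lectin with a collagen-like stalk that starts the lectin pathway and is also made by macrophages. The untreated libraries held 7.99, 16.6 and 12.8 CPM of Fcna, and the CpG libraries 0.98, 2.92 and 3.40 CPM. The groups did not overlap, and Fcna had a log2 fold change of -2.35 with an SE of 0.41 (edgeR adjusted p = 0.044). The call on Fcna was lost with limma-voom (adjusted p = 0.0732) and, in edgeR, without untreated 3 (adjusted p = 0.180), untreated 4 (0.163), CpG 2 (0.150) or CpG 3 (0.150). With the replicate block C6, a terminal component, was also lower, at -1.52 (edgeR adjusted p = 0.030). Other components differed less between the groups: the log2 fold changes were -0.01 for C3, the central component, -0.16 for C2, -0.05 for Cfb, and -0.17 for Cfp, which encodes properdin and was by far the most abundant component at 443.8 to 531.4 CPM in untreated libraries. These 4 did not pass the test, with edgeR adjusted p of 0.992, 0.898, 0.967 and 0.613. Of the list, 9 genes had no count and 6 had at most 3 counts in any library.

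Among 14 complement regulators 2 were tested, and edgeR, its replicate block, DESeq2 and limma-voom each called 0, with 1 at an unadjusted p under 0.05 in edgeR. Cr1l (Crry, the rodent regulator of C3 convertases) had means of 31.3 ± 1.96 CPM without and 26.4 ± 0.579 CPM with CpG (SD, n = 3). Its log2 fold change was -0.25 (edgeR adjusted p = 0.375).

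Of 15 receptors for C1q and other complement fragments, 10 were tested, 0 were higher and 1 was lower, with a median log2 fold change of -0.12. The lower gene, C5ar2, encodes the receptor for C5a that does not couple to G proteins. The untreated libraries had 3.81, 2.75 and 4.18 CPM of C5ar2 and the CpG libraries 1.10, 0.89 and 1.008 CPM, and its log2 fold change was -1.82 (SE 0.29, edgeR adjusted p = 0.042). Its call was lost with limma-voom (adjusted p = 0.0568) and, in edgeR, without untreated 2 (0.0753), untreated 3 (0.113), untreated 4 (0.168), CpG 2 (0.151), CpG 3 (0.149) or both libraries numbered 2 (0.111). With the replicate block Cr2, which encodes complement receptor 2 and marks B cells, was also lower, at -1.44 (edgeR adjusted p = 0.0024, against 0.076 without the block). Molecules that bind C1q at the cell surface showed smaller differences: the log2 fold changes were 0.19 for Calr (calreticulin), 0.09 for C1qbp, -0.39 for Lrp1, -0.14 for Lair1 (an inhibitory receptor for collagen-like stalks) and -0.10 for Cd93. The edgeR adjusted p was 0.541 for Calr, 0.887 for C1qbp, 0.747 for Lrp1, 0.631 for Lair1 and 0.941 for Cd93.

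In the wider family of genes with a C1q domain 4 of 27 were tested, and edgeR, its replicate block, DESeq2 and limma-voom called 0, with 1 at an unadjusted p under 0.05 in edgeR and a median log2 fold change of 0.31. Emilin2, an extracellular matrix protein, was at 0.28 (edgeR adjusted p = 0.813) and Caprin2, an RNA-binding protein, at -0.16 (0.835). Of 13 enzymes and chaperones that modify collagen-like chains 8 were tested, the same fits called 0 with 0 at an unadjusted p under 0.05, and the median was 0.04. Colgalt1, which adds galactose to hydroxylysine, was at 0.16 (edgeR adjusted p = 0.702), and P4hb, the beta subunit of prolyl hydroxylase, at 0.14 (0.689).

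Of 18 macrophage transcription factors 17 were tested, 0 were higher and 1 was lower, with a median log2 fold change of -0.07. Spic, which specifies red pulp macrophages, was at -0.66 (edgeR adjusted p = 0.120, and 0.0095 with the block). With the block Irf8, a factor of dendritic cell and monocyte lineages, was higher at 0.75 (edgeR adjusted p = 0.018, against 0.178 without it). Maf was at -0.69 (edgeR adjusted p = 0.665) and Spi1, which encodes PU.1, at 0.03 (0.955).

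**Figure D3:**
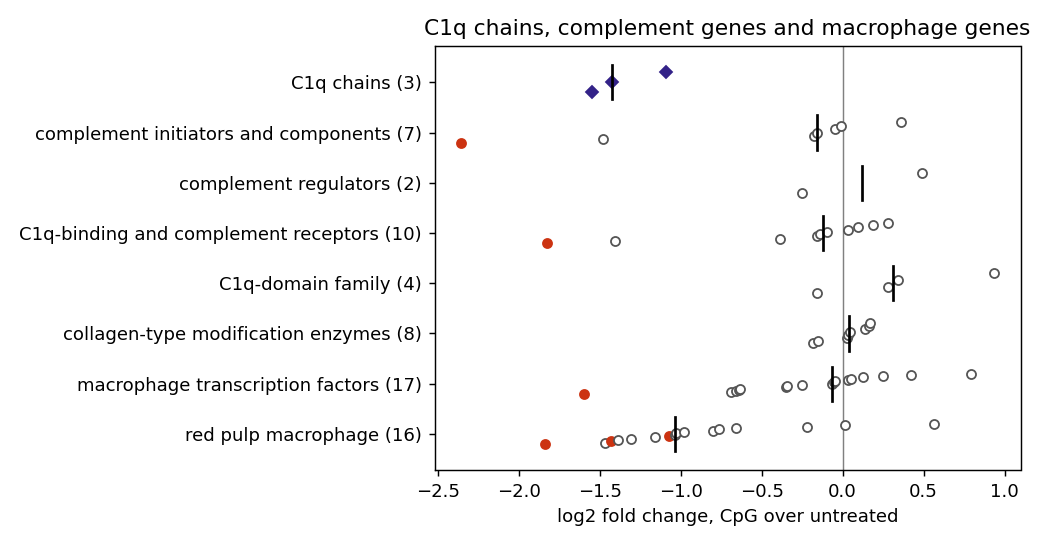
Log2 fold change (CpG over untreated) of the 3 C1q chains (diamonds, given as a description) and of the tested genes in 7 lists, with the number of genes in brackets; filled circles are genes called by edgeR and vertical bars are medians. The chains lie between -1.55 and -1.09, the medians of the complement lists lie near 0 with Fcna, C5ar2, C6 and Cr2 far below, and the red pulp macrophage list has a median of -1.03.

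Most markers of red pulp macrophages also had a log2 fold change below 0, and some were called lower after CpG. All 16 of 16 markers were tested and none was at 0. Of them 3 were lower and 0 higher in edgeR (0.5% of all genes tested were lower). With the replicate block 11 were lower and 0 higher (3.78% of all genes lower). DESeq2 called 8 (3.67% of all genes) and limma-voom 2 (0.353%). In edgeR 12 were at an unadjusted p under 0.05, against 1485 of the 11602 genes tested. Of the 16 markers, 14 had a log2 fold change below 0, with a median of -1.03 against -0.005 over all genes tested. Their summed level was 758 to 931.5 CPM in untreated and 523.4 to 680.7 CPM in CpG libraries. The part of these cells in the lower C1q levels was not tested. The lower genes were Hpgd, which encodes the enzyme that breaks down prostaglandins, at -1.84 (edgeR adjusted p = 0.039), Vcam1, an adhesion molecule, at -1.43 (0.044), and Trf, which encodes transferrin, at -1.07 (0.039). Vcam1 went from 28.6, 53.1 and 46.3 CPM without CpG to 11.9, 16.6 and 19.0 CPM with CpG. Without untreated 3, untreated 4, CpG 2 or CpG 3, edgeR called 0 of the 16, with 9 to 11 at an unadjusted p under 0.05. Without untreated 2 or without both libraries numbered 2, the calls on Hpgd (edgeR adjusted p = 0.0775 and 0.341) and Trf (0.0527 and 0.150) were lost, and limma-voom did not call Vcam1 (adjusted p = 0.0732).

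The ratio of C1q to these markers depended on which markers were summed. The C1q sum was 5.37%, 5.41% and 6.32% of the sum of the 16 markers in untreated and 2.98%, 3.53% and 2.79% in CpG libraries, a log2 change of -0.88. That sum was dominated by Adgre1 (F4/80) and Pecam1 (CD31), which exceeded 100 CPM in every library and had log2 fold changes of -0.22 and 0.02 (edgeR adjusted p = 0.559 and 0.979). Without these 2, a choice made after seeing the data, the other 14 summed to 316, 416 and 448 CPM without CpG and to 151, 190 and 197 CPM with it. C1q was then 12.9%, 11.9% and 13.1% of that sum in untreated and 10.3%, 11.4% and 9.64% in CpG libraries, or 12.6 ± 0.641% against 10.5 ± 0.908% (SD, n = 3), a log2 change of -0.27. On either sum the groups did not overlap. As the chains were chosen for being lower after CpG, these ratios are a description and nothing is read from the lack of overlap. The C1q sum was 2.65-fold lower after CpG, the sum of the 14 markers 2.2-fold lower and the sum of all 16 markers 1.43-fold lower.

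**Figure D4:**
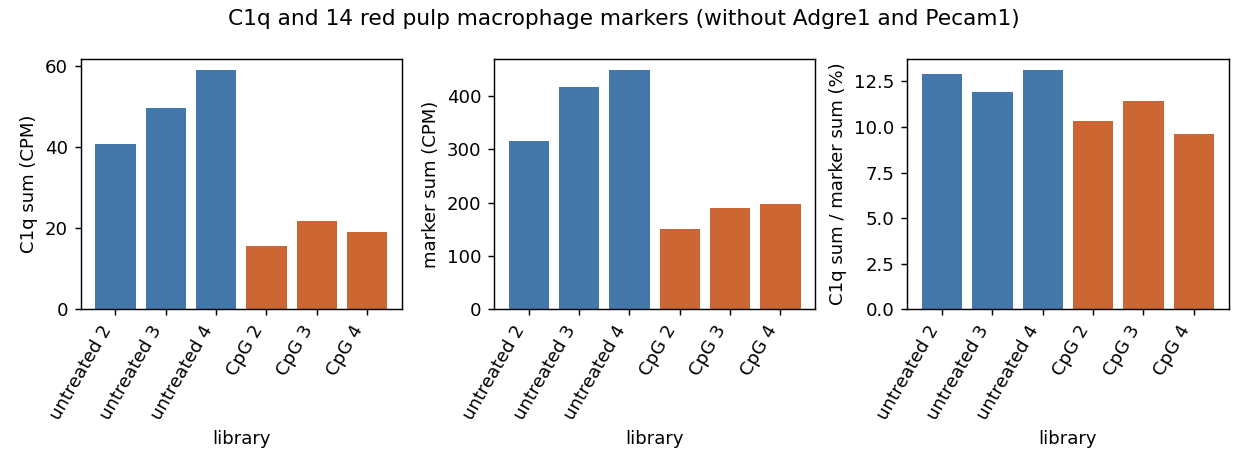
Summed level of the 3 C1q chains (CPM, left), summed level of 14 red pulp macrophage markers without Adgre1 and Pecam1 (CPM, middle) and the first as a percentage of the second (right) in each library; untreated in blue, CpG in orange, bars from 0. Both sums are lower in the CpG libraries, and the percentage goes from 11.9 to 13.1 in untreated to 9.64 to 11.4 in CpG libraries.

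Other splenic macrophages and their relatives gave a mixed picture. Of 5 marginal zone macrophage markers 4 were tested and 1, Cd209b (SIGN-R1), was lower at -3.17 (edgeR adjusted p = 0.030). Without untreated 3, untreated 4, CpG 2, CpG 3 or both libraries numbered 2, edgeR called 0 of the 4, with 1 or 2 at an unadjusted p under 0.05. The list summed to 15.5 to 19.5 CPM in untreated and 6.30 to 10.3 CPM in CpG libraries, with Cd209f at 0. Of 12 monocyte markers 11 were tested and edgeR and limma-voom called 0 (4 and 3 at an unadjusted p under 0.05) and DESeq2 2, with sums of 1133 to 1389 CPM in untreated and 1300 to 1541 CPM in CpG libraries. With the replicate block 2 of the monocyte markers were higher and 2 lower.

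The genes most like C1q in their pattern over the libraries were ranked by the Pearson correlation of log2 CPM with the mean of the 3 chains, among the 8973 genes whose average log2 CPM was 3 or more. Over the 6 libraries, a measure that includes the group difference the chains were chosen for, the 8 nearest were Flvcr1 (0.990), Spats2 (0.987), Abcd3 (0.985), Slc20a2 (0.984), Vwf (0.981), Arsk (0.979), Agpat3 (0.979) and Styxl1 (0.978). Of these, Spats2 differed most between the groups, from 22.1 ± 3.73 CPM without CpG to 5.98 ± 1.36 CPM with it (SD, n = 3), while Abcd3 was at 25.8 ± 1.06 and 21.9 ± 0.480 CPM. A high correlation therefore does not mean a difference of the same size. With group means removed, the 8 nearest were Rnf168 (0.994), Ppp2r5a (0.993), Eps15l1 (0.987), Slc4a2 (0.985), Fbf1 (0.983), Tbccd1 (0.983), Mmut (0.982) and Per2 (0.982). No gene stood on both lists. By Spearman correlation 27 and 41 genes were tied at the top, so ranks over 6 libraries do not single out 8 genes. Among the red pulp macrophage markers the correlation over 6 libraries, which holds each marker's own group difference, ran from -0.298 (Fcgr1) and 0.173 (Pecam1) to 0.965 (Slc11a1). With group means removed it was highest for Axl (0.882) and Hmox1 (0.877), and was 0.713 for Pecam1, 0.651 for Vcam1, -0.021 for Hpgd and -0.226 for Trf.

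No gene tested around the cluster was called. Few were tested, and over all genes tested edgeR called 0.974%, its replicate block 8.52%, DESeq2 3.67% and limma-voom 0.353%. A count of 0 among so few genes is near those shares, and nothing is read from it. Of the 5 annotated genes on each side 4 were tested, and edgeR called 0 of them with or without the replicate block, as did DESeq2 and limma-voom, with 0 at an unadjusted p under 0.05. The log2 fold changes were 0.16 for Luzp1, 0.00 for Kdm1a, 0.02 for Zbtb40 and 0.02 for Cdc42. The nearest neighbours were Ephb2 at 43.8 kb, with at most 10 reads in a library, and Epha8 at 30.6 kb, with no count in any library. With 10 genes on each side, 8 of 20 were tested and edgeR, with or without the block, DESeq2 and limma-voom called 0, with 1 at an unadjusted p under 0.05 in edgeR.

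**Figure D5:**
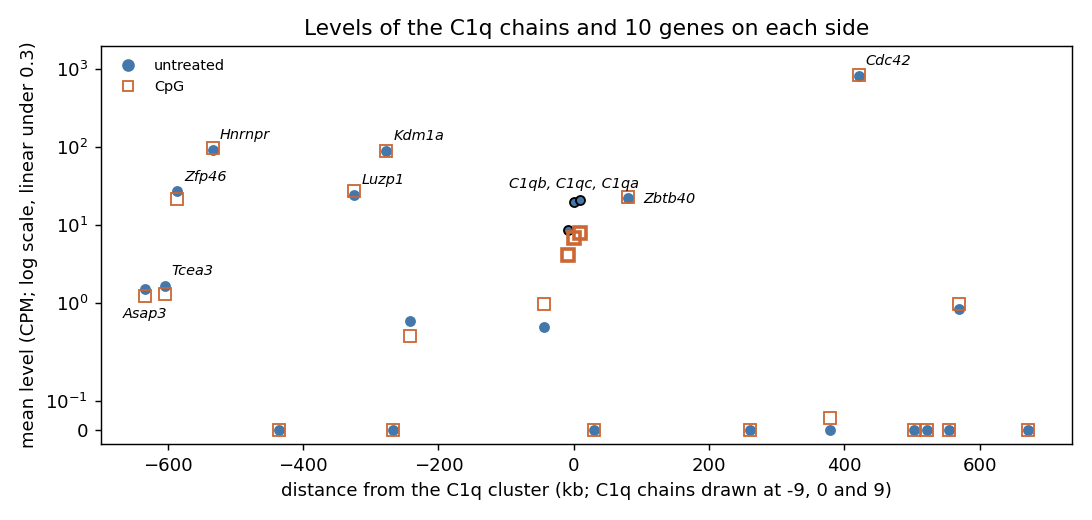
Mean level (CPM, log axis that is linear under 0.3) of the C1q chains and of 10 genes on each side against distance from the cluster in kb, untreated as filled circles and CpG as open squares. The 3 chains, bordered in bold at the centre, have the circle above the square, while Kdm1a, Zbtb40 and Cdc42 have both at nearly the same height; genes under 1 CPM rest on a few reads.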

How the data were processed

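RNA was measured in 6 libraries, 3 CpG and 3 untreated. The authors deposited a table of raw counts by Entrez gene, made with CASAVA and featureCounts on mm10, per the submitters' processing notes. The sources used here do not name the aligner, strand setting or treatment of shared reads; nothing says that counting used strand, and a gene and its antisense partner then cannot be told apart. The per-sample counts equalled those of the series table. The authors' table also gives the gene length used for per-kilobase values. Symbols came from RefSeq GRCm38.p6 (25275 of 27179 identifiers matched, 1904 did not).

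The counts went into edgeR 4.0.16 (R 4.3.3): filterByExpr (minimum count 10, minimum total 15; 11602 genes kept), TMM scaling and the two-sided robust quasi-likelihood F test, Benjamini-Hochberg adjusted over all genes tested, called under 0.05. Standard errors are the log2 fold change over the root of F. Alternatives were RLE, upper quartile and unscaled library sizes, DESeq2 1.42.0, limma-voom (limma 3.58.1), other filters, leaving out each library or both numbered 2, and the library number as a block. Intervals are exact, at 95%. The procedure was also run on simulated counts with the same dispersion for all genes and no pair or length effect. That run does not cover the spread between these libraries.

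Libraries of the same group did not agree within sampling noise (chi-square per degree of freedom 3.3 to 20.9), so all 6 were used. The labels do not say what the library numbers mark. Across genes, the deviations from the group mean of libraries 2, 3 and 4 correlated with those of their counterparts at 0.48, 0.25 and 0.31. Each was over 0.1, and on this ground, from the data alone, the number was used as a block in an alternative fit. The main edgeR fit had no block, so its SE and adjusted p are unpaired. The block is printed where it changes a call.

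The chains and the gene lists were chosen with earlier results of these data known. Named genes were the chains, called members of each list (or its 2 most abundant tested members), C1r, C1s, Serping1, Maf, Spi1 and Spic, called genes around the cluster, and the 8 genes nearest in pattern by each measure. Some genes that this rule names are not reported here. Others were named after their values were seen. For log2 levels in correlations a prior count of 2 was added. Counts of 3 or fewer were read as not distinguishable from 0.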

Additional observations from a re-analysis of the deposited data

How the results depend on the processing

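The C1q chains kept their direction under every alternative run: leaving out each library in turn gave log2 fold changes of -1.50 to -1.30 for C1qa, -1.26 to -0.78 for C1qb and -1.73 to -1.31 for C1qc, and scaling, filter and tool moved them less. Counts of calls depended on the processing. Genes called overall were 113 in edgeR, 426 with DESeq2, 41 with limma-voom, 189 with no filter on low counts, 67 without both libraries numbered 2, 988 with the replicate block, and 0 to 386 when each library was left out; the 0 came without CpG 2 and without CpG 3, with 1065 and 1107 genes at an unadjusted p under 0.05. Leaving out untreated 2, untreated 3 or untreated 4 gave 34, 2 and 1, and leaving out CpG 4 gave 386. For complement components the 1 call became 0 with limma-voom, 2 with the block and 0 to 1 with a library left out. For receptors the 1 call became 2 with DESeq2, 0 with limma-voom, 2 with no filter, 2 with the block, 0 without both libraries numbered 2 and 0 to 2 with a library left out. For macrophage transcription factors the 1 call became 2 with DESeq2, 0 with limma-voom, 3 with the block and 0 to 3 with a library left out. For red pulp macrophage markers the 3 calls became 8 with DESeq2, 11 with the block and 0 to 3 with a library left out. Each left-out library leaves fewer samples; the cause of the other changes was not tested. The log2 change of C1q relative to these markers was -0.88 on their sum, -0.43 on their geometric mean and -0.27 on the sum without Adgre1 and Pecam1. Among the genes nearest in pattern, Flvcr1, Agpat3 and Styxl1 were called with the block only (adjusted p = 0.0044, 0.0127 and 0.0082 against 0.0895, 0.135 and 0.098 in edgeR). Of 5 neutrophil markers the block called 1 (Mpo) and edgeR 0, with 1 at an unadjusted p under 0.05 and 0 by DESeq2 and limma-voom. The reads of the chains, 28 to 201 per library, limit differences between their shares.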
